A study of Mus musculus with 18 samples.

Results

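The miR-29 family of microRNAs was followed through 3 sample types of ultraviolet-driven skin carcinogenesis in the mouse. Its members, chosen by name, were the 3p arms mmu-miR-29a-3p, mmu-miR-29b-3p and mmu-miR-29c-3p (mmu, the prefix of mouse entries, is left out from here on), which are 3 of the 1251 microRNA entries of the table. The 18 small RNA libraries came from 6 female littermates of SKH-1E Hairless mice, an outbred strain whose defect in the Hairless gene leaves the skin bare. Every mouse gave 1 library of each type, so that n = 6 per type. CHR was nonlesional skin after chronic ultraviolet exposure, PAP was papilloma, the preneoplastic lesion, and cuSCC was cutaneous squamous cell carcinoma. All 3 types had the same chronic ultraviolet B irradiation of adult mice, followed by a pause before the tissue was taken, and no skin from unirradiated mice was analysed here. The libraries were made from RNA of whole tissue pieces, in which the tumour samples also held non-tumour cells. The comparisons ask which microRNAs differ between irradiated skin and papilloma, the first step, and between papilloma and carcinoma, the second.

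MicroRNAs pair with messenger RNAs mainly through the seed, bases 2 to 8 counted from the 5′ end, and lower the amount and translation of those messages. The miR-29 family is best known for repressing messages of the extracellular matrix, among them fibrillar collagens, elastin and fibrillin. It also represses the DNA methyltransferases DNMT3A and DNMT3B and the survival protein MCL1. TGF-beta signalling lowers miR-29 in fibroblasts, and MYC represses its genes in several tumours. In skin, dermal fibroblasts are the main source of collagen, and keratinocytes also carry miR-29. The name collagen regulators rests on these known targets. No messenger RNA was measured in these small RNA libraries. The study also sequenced messenger RNA of the Hairless mice, but those data were not used here. The name was therefore not checked against collagen levels.

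The mature sequences, taken from RefSeq on GRCm38.p6, are shown because the members differ by so few bases. The seed is in capitals.
miR-29a-3p: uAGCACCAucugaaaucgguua
miR-29b-3p: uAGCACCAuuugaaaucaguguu
miR-29c-3p: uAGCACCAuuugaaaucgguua

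All 3 share the seed AGCACCA. Of the 1251 entries, 1001 could be matched by name to a RefSeq sequence, and the 3 members were the only ones of these with that seed. Counted from the 5′ end, with the base of the first-named member before the position, miR-29a-3p and miR-29c-3p differ by the single substitution C10U. Between miR-29a-3p and miR-29b-3p there are 4 substitutions, C10U, G18A, U21G and A22U, and miR-29b-3p is 1 base longer, at 23 against 22 bases.

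The members come from 4 hairpins at 2 places in the genome. Mir29a gives miR-29a-3p from chr6:31062673-31062694 on the minus strand. The hairpin of Mir29a (chr6:31062660-31062747) lies 275 bases from that of Mir29b-1 (chr6:31063023-31063093), which is on the same strand and gives miR-29b-3p. Mir29c gives miR-29c-3p from chr1:195037600-195037621 on the plus strand. Its hairpin (chr1:195037547-195037634) lies 426 bases from that of Mir29b-2 (chr1:195037040-195037120), the other source of miR-29b-3p. The GENCODE annotation of GRCm38 places Mir29b-2 and Mir29c within an exon of the noncoding transcript A330023F24Rik (chr1:195033823-195037904) on the same strand. On the opposite strand they lie in an untranslated part of an exon of Cd46 (chr1:195036826-195041994), a protein-coding gene. Mir29b-1 overlaps the noncoding Gm27019 by 2 bases, and Mir29a overlaps no other annotated gene. The values of the table are assigned by mature sequence, so that reads from Mir29b-1 and Mir29b-2 cannot be told apart in miR-29b-3p.

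Values are log2 levels in ppm of usable reads, quantile normalized by the authors, so that a value reflects where a microRNA ranks among the others of the same library. The lowest value of the table, 3.32, stands for not detected. The CHR libraries held 200 to 328 detected entries, the PAP libraries 163 to 281 and the cuSCC libraries 236 to 365. The lowest value of a detected microRNA reached up to 5.77 in CHR, 6.83 in PAP and 4.50 in cuSCC. The read number behind each library is unknown, and no counting error can be given. No 2 libraries were identical. By their profiles over the tested microRNAs, 17 libraries were most like the others of their own type. The exception was the cuSCC library of mouse 10, which correlated at a mean r of 0.41 with the PAP libraries and of -0.12 with the other cuSCC libraries. Where a result for miR-29a-3p, or a call on a microRNA named beside it, changes without this library, the value without it is given too. Skin origin was checked with miR-205-5p, a microRNA of stratified epithelium, whose level averaged 17.87 in CHR, 18.22 in PAP and 18.08 in cuSCC. CHR also held miR-133a-3p, a microRNA of skeletal muscle, at 15.63 ± 0.19 (SD, n = 6), against 5.59 ± 3.55 in PAP and 12.41 ± 3.56 in cuSCC.

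Only miR-29a-3p was an abundant member of the family in these libraries. It was detected in 18 of 18 libraries, at levels from 10.19 to 11.94, and ranked 50th to 79th among the 1251 entries. In CHR its lowest, median and highest levels were 10.96, 11.49 and 11.82. In PAP they were 10.19, 10.92 and 11.22. In cuSCC they were 10.68, 11.56 and 11.94. The level thus lay lowest in PAP, with an overlap with both of the other types. The distance of miR-29a-3p from the lowest detected microRNA of its own library was 3.36 to 6.97 on the log2 scale in PAP, 5.79 to 8.33 in CHR and 6.32 to 8.41 in cuSCC.

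The other members were at or next to the lowest value. miR-29b-3p stood at 3.32 in all 18 libraries, although it has 2 hairpins in the genome, one of them beside Mir29a. miR-29c-3p stood at 3.32 in all 6 CHR and all 6 PAP libraries. In cuSCC it was detected in 2 of 6 libraries, at 3.62 in mouse 3 and at 3.32, just above the limit, in mouse 2. Both values were close to the lowest detected values of their libraries. miR-29b-3p and miR-29c-3p were therefore not tested for a difference of their own level, and of a level below the limit of a library nothing can be said. The 3 sequences are 22 or 23 bases long, so that read counts of the members need no correction for length.

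The opposite strands of the hairpins, the 5p arms, were as scarce. Their sequences do not share the seed of the 3p arms. miR-29a-5p was detected in 1 of 18 libraries, the CHR of mouse 8, at 3.82. miR-29b-1-5p was detected in the CHR of mouse 10, at 3.52, and miR-29b-2-5p in none. miR-29c-5p was detected in 4 libraries, the CHR of mouse 10 at 4.61 and the cuSCC of mice 2, 8 and 9 at 3.34, 4.48 and 3.70. That is more libraries than for its 3p arm. None of the 4 5p arms reached the 6 libraries needed for a test.

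The gap between miR-29a-3p and miR-29c-3p was also set beside other microRNAs that differ by 1 base. Reads were assigned by sequence similarity, and how reads that fit 2 such microRNAs were counted is not given in the sources used here. The values of 1-base neighbours are therefore uncertain. Among 14 pairs with 1 substitution, at most 2 bases of difference in length and 1 partner detected in every library, both partners were detected in all 18 libraries in 11 pairs. The mean levels of those 11 pairs differed by 0.02 (miR-30a-3p and miR-30e-3p) to 4.70 (miR-27b-3p and miR-27a-3p) on the log2 scale. In 3 pairs the lower partner was missing from most or all libraries. These were miR-29a-3p with miR-29c-3p at a gap of 7.87, miR-17-5p with miR-106a-5p at 5.03 and let-7i-5p with let-7j at 9.31. Base composition was also compared, because miR-29b-3p (34.8% G and C) and miR-29c-3p (36.4%) are poorer in G and C than miR-29a-3p (40.9%). Of 253 entries with at most 40.9% G and C, 20.9% were detected in at least 6 libraries, against 25.1% of 748 entries above it. Their part in the values of miR-29b-3p and miR-29c-3p was not tested.

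**Figure D1:**
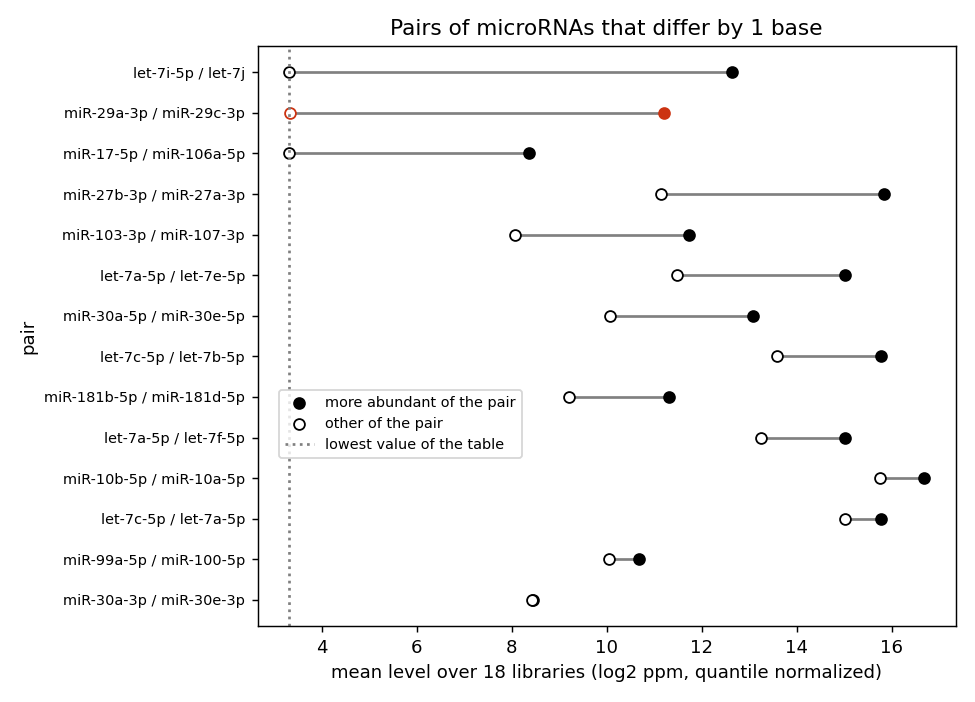
Mean level over 18 libraries (log2 ppm, quantile normalized) of both partners of 14 pairs of microRNAs that differ by 1 base, with the more abundant partner filled and the other open. The pair of miR-29a-3p and miR-29c-3p, in red, has a gap of 7.87 and is 1 of 3 pairs whose lower partner lies at or near the dotted lowest value.

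From CHR to PAP, the first step, miR-29a-3p was lower in papilloma, but the difference did not pass the test over all microRNAs. Its mean was 11.43 ± 0.34 in CHR and 10.84 ± 0.37 in PAP (SD, n = 6 each). The difference of -0.59 on the log2 scale (SE 0.25, 95% confidence interval -1.14 to -0.04) corresponded to 0.663 of the CHR level. The p of limma was 0.0362, and 0.0919 after Benjamini-Hochberg adjustment over the 293 microRNAs tested. PAP was below CHR in 6 of 6 mice, by amounts from -0.14 in mouse 2 to -1.53 in mouse 10. Even so, the groups overlapped, as 3 of 6 PAP libraries lay below all CHR libraries and 4 of 6 CHR libraries above all PAP libraries. A two-sided exact permutation test of the libraries gave p = 0.0195, and an exact sign-flip test of the 6 within-mouse differences gave p = 0.03125, the smallest it allows; neither is adjusted over the microRNAs tested. As background, 32.4% of the 293 microRNAs passed an adjusted p of 0.05 in this comparison, 14.0% as higher and 18.4% as lower. These are 41 higher and 54 lower calls, a balance that turned to 63 and 37 with undetected values set at the lowest detected value of their library. The median difference of all tested microRNAs was -0.23, so that miR-29a-3p lay 0.36 below that median on the log2 scale. Another centring, on microRNAs outside the cell type lists, moved the median of all tested microRNAs to -0.05. With it the difference of miR-29a-3p was -0.42 (limma adjusted p = 0.298). Leaving out 1 mouse gave -0.68 (without mouse 2, limma adjusted p = 0.0858) to -0.41 (without mouse 10, adjusted p = 0.254). At the thresholds the study used, an unadjusted p under 0.05 and a 1.5-fold change, miR-29a-3p counted as lower in PAP (unmoderated equal-variance test, fold 1.51), as did 22.2% of all tested microRNAs.

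From CHR to cuSCC, no difference of miR-29a-3p was seen beyond the spread between mice. The cuSCC mean was 11.37 ± 0.50 (SD, n = 6), a difference of -0.06 from CHR (SE 0.30, 95% confidence interval -0.69 to 0.57, limma adjusted p = 0.885). In this comparison 42.3% of the tested microRNAs passed. The mice fell into 2 directions. miR-29a-3p was higher in cuSCC than in CHR of mice 2, 3, 7 and 8, by 0.71, 0.14, 0.38 and 0.45. It was lower in mice 9 and 10, by -1.15 and -0.90. Those are the 2 cuSCC libraries that lay below all CHR libraries. Leaving out mouse 9 turned the difference to 0.16, leaving out mouse 10 to 0.11 and leaving out the cuSCC library of mouse 10 alone to 0.05, none of which passed the test (limma adjusted p = 0.692, 0.809 and 0.896).

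From PAP to cuSCC, the second step, miR-29a-3p was 0.53 higher on the log2 scale in carcinoma (SE 0.29, 95% confidence interval -0.10 to 1.17), and the difference did not pass the test (limma adjusted p = 0.255). It was higher in 5 of 6 mice, by 0.45 to 0.91, and lower in mouse 9 by -0.54. Of the cuSCC libraries, 4 of 6 lay above all PAP libraries. An exact permutation test, two-sided, gave p = 0.0671, not adjusted. Without the cuSCC library of mouse 10 the difference was 0.64 (limma adjusted p = 0.161). In this comparison 11.6% of the tested microRNAs passed, 9.22% as higher and 2.39% as lower. These 34 calls were 27 higher and 7 lower, and centring on microRNAs outside the cell type lists made them 15 and 7, while undetected values set at the lowest detected value of their library turned the balance to 18 higher and 62 lower. They depended on single mice, as the number of calls was 1 without mouse 3, 7 or 8, 9 without mouse 2 or 9, and 59 without mouse 10.

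By mean level miR-29a-3p thus stood in the order CHR, cuSCC, PAP, and no neighbours in this order differed at an adjusted p of 0.05. The ratio of the members to each other held no further information. Because miR-29b-3p was constant, the difference between miR-29a-3p and miR-29b-3p within a library moved exactly as miR-29a-3p did. Over the 9 comparisons of member differences, the smallest adjusted p was 0.0877 (exact permutation test, two-sided), for miR-29a-3p against either partner between PAP and CHR.

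**Figure D2:**
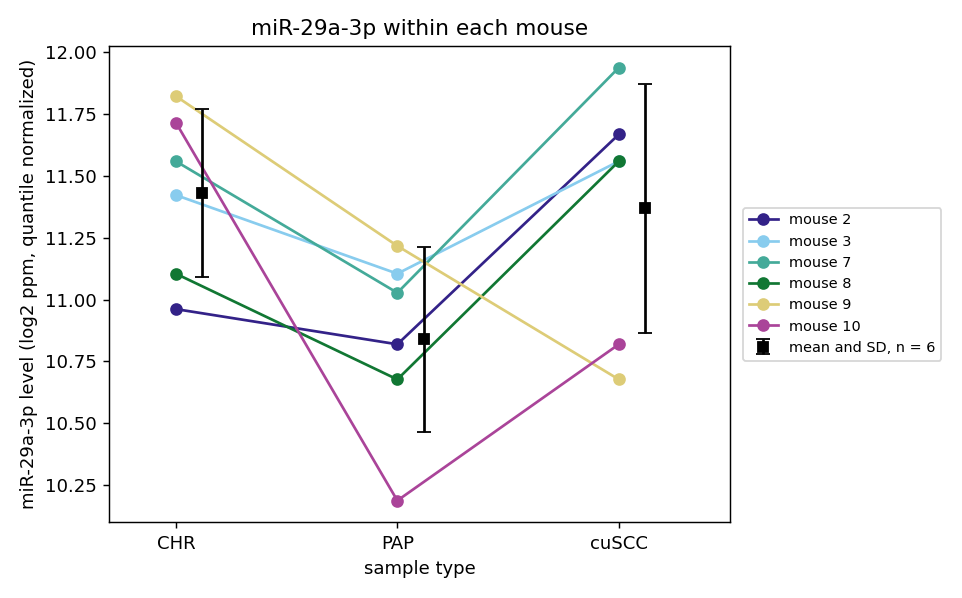
Level of miR-29a-3p (log2 ppm, quantile normalized) in the CHR, PAP and cuSCC of each mouse, with 1 line per mouse and black squares for the mean and SD of each type (n = 6). All 6 lines fall from CHR to PAP, and 5 of 6 rise from PAP to cuSCC, with that of mouse 9 falling by -0.54.

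miR-29a-3p varied less than most microRNAs. Its SD within sample types was 0.41 on the log2 scale, against a median of 0.85 over the 293 tested microRNAs, and 21 of them (7.17%) had a smaller SD. Its whole range over the 18 libraries was 1.75, against a median range of 3.38. The 293 include microRNAs detected in as few as 6 libraries, whose values step between the lowest value and detected levels. No comparison with microRNAs of a similar level was made.

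The microRNAs whose levels followed miR-29a-3p most closely over the 18 libraries were miR-195a-5p, miR-143-3p and miR-10b-5p. These correlations are descriptions, as the libraries share mice and sample types and quantile normalization ties the values of a library to each other. miR-195a-5p, of the miR-15 and miR-16 family of cell cycle regulators, had Pearson's r = 0.84 and Spearman's rho = 0.79. miR-143-3p, a microRNA of fibroblasts and smooth muscle, had r = 0.83 and rho = 0.79. miR-10b-5p, which is encoded within a Hox gene cluster, had r = 0.80 and rho = 0.78. With each sample type centred on its own mean, r was 0.76, 0.77 and 0.76, and without the cuSCC library of mouse 10 it was 0.83, 0.82 and 0.80. For comparison, the median r of the 292 other tested microRNAs with miR-29a-3p was 0.08, and 11 had an r over 0.7. The strongest opposite course, picked out after its value was seen, was that of miR-106b-3p at r = -0.86. No such likeness was computed for miR-29b-3p, which is constant, or for miR-29c-3p.

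The differences of these 3 microRNAs in PAP were larger in size than that of miR-29a-3p, although the gap between the differences was not tested. miR-143-3p averaged 13.60 ± 0.28 in CHR, 12.07 ± 0.94 in PAP and 14.05 ± 1.11 in cuSCC (SD, n = 6 each). It fell by 1.53 on the log2 scale from CHR to PAP (limma adjusted p = 0.0125, and 0.0513 without mouse 3) and was 1.98 higher in cuSCC than in PAP (adjusted p = 0.0402, with a highest value of 0.176 when any of mice 2, 3, 7, 8 and 9 was left out). miR-10b-5p fell by 1.70 to PAP (limma adjusted p = 0.00961) and was 2.40 higher in cuSCC than in PAP (adjusted p = 0.0134, and up to 0.0960 without mouse 3, 7 or 8). miR-195a-5p was less abundant, at 7.85 ± 0.81 in CHR, 5.63 ± 1.22 in PAP and 8.08 ± 1.62 in cuSCC (SD, n = 6 each). Its PAP values ran from 3.32, not detected, to 6.72, and the lowest detected value of a PAP library reached up to 6.83. Its course in PAP therefore lay near the detection limits. miR-195a-5p fell by 2.23 to PAP (limma adjusted p = 0.0101), and its difference of 2.45 between cuSCC and PAP did not pass (adjusted p = 0.0589). It passed with mouse as a block (limma adjusted p = 0.0218) and, at 3.03, without the cuSCC library of mouse 10 (adjusted p = 0.00524). Against CHR, the cuSCC differences of miR-143-3p, miR-10b-5p and miR-195a-5p were 0.45, 0.70 and 0.22 and did not pass (limma adjusted p = 0.415, 0.278 and 0.806). Without mouse 10, miR-10b-5p passed as 1.24 higher in cuSCC (limma adjusted p = 0.0347), and without the cuSCC library of that mouse alone miR-143-3p did so (adjusted p = 0.0468).

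**Figure D3:**
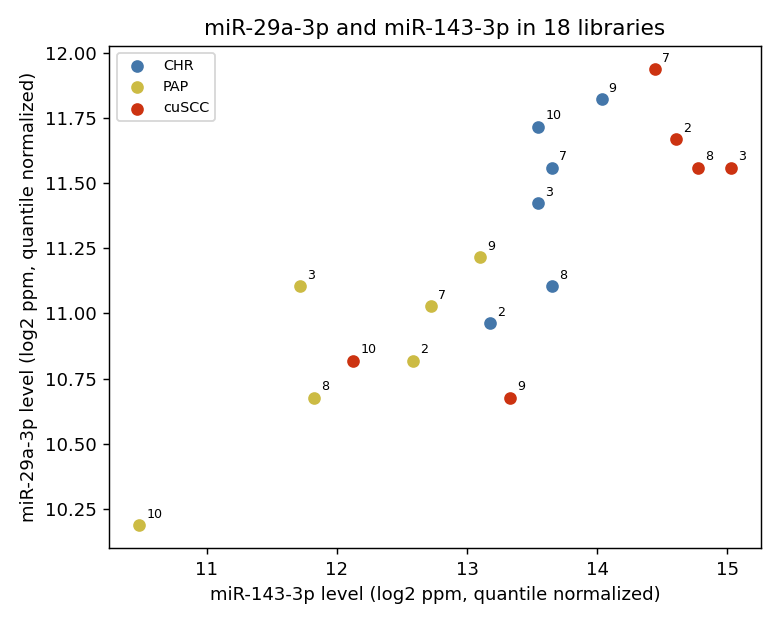
Level of miR-29a-3p against that of miR-143-3p (both log2 ppm, quantile normalized), with 1 point per library, coloured by sample type and marked with the mouse number. Both levels are low in most PAP libraries, and the cuSCC libraries of mice 9 and 10 lie low in miR-29a-3p, at 10.68 and 10.82 (r = 0.83 over 18 libraries).

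In whole tissue, fewer cells of a type and less RNA per cell cannot be told apart. Markers of fibroblasts and smooth muscle were therefore set beside miR-29a-3p. Of the 10 listed (both arms of miR-143, miR-145a, miR-199a, miR-199b and miR-214), 9 were tested. Between PAP and CHR, 0 of these were higher and 5 lower, beside 18.4% lower of all tested microRNAs, with a median difference of -1.53. miR-199a-3p and miR-199b-3p have the same sequence and the same fitted values, and counted once they leave 4 lower of 8. Of the 9, 1 was lower without mouse 3 and 2 without mouse 7 or 8. The median was negative in each of these fits. The largest change was that of miR-145a-5p, which fell by 2.83 (SE 0.45, limma adjusted p = 0.000452). Between cuSCC and PAP, 4 were higher (3 of 8 with that pair counted once), beside 9.22% of all tested microRNAs, with a median of 1.98, led by miR-199b-3p at 2.62 (SE 0.63, limma adjusted p = 0.0319). None were higher without mouse 2, 3, 7 or 8, 2 without mouse 9 and 8 without mouse 10. Between cuSCC and CHR, miR-145a-5p was lower by 1.78 (limma adjusted p = 0.0140) and no marker was higher, but 5 were higher without mouse 10 and 6 without its cuSCC library alone. The summed level of the list (log2 of the sum) ran from 14.39 to 15.12 in CHR, from 11.16 to 14.18 in PAP and from 12.70 to 15.70 in cuSCC, and no marker of the list was missing from all libraries.

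Set against 4 of these markers that were detected in all 18 libraries (miR-143-3p, miR-145a-5p, miR-199a-3p and miR-199b-3p, the last pair with 1 shared sequence), miR-29a-3p was not low in PAP. Its level minus the mean of the 4 markers was -0.36 ± 0.21 in CHR, 0.88 ± 0.72 in PAP and -0.66 ± 0.83 in cuSCC (SD, n = 6 each). Relative to these markers, miR-29a-3p was thus 1.24 higher in PAP than in CHR and 1.54 lower in cuSCC than in PAP. This is the reverse of its own direction in both steps, because the markers moved further the same way. Their mean differed by -1.83 between PAP and CHR and by 2.07 between cuSCC and PAP, against -0.59 and 0.53 for miR-29a-3p. The relative differences were not tested. Without the cuSCC library of mouse 10, the cuSCC value was -0.99. The markers themselves averaged 9.82 in the cuSCC library of mouse 10, the lowest of cuSCC, and 11.76 in that of mouse 9. The part of these cells in the level of miR-29a-3p was not tested.

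The other cell type lists moved as follows. Of 7 epithelial microRNAs, 4 were higher in PAP than in CHR with a median of 1.24, led by miR-429-3p of the miR-200 family at 1.87 (SE 0.43, limma adjusted p = 0.00575); without mouse 3 or 7 the count was 2. Their summed level ran from 17.50 to 18.51 in CHR, from 17.77 to 18.55 in PAP and from 17.50 to 18.54 in cuSCC. The skeletal muscle list of 5 had 3 tested members, which were all lower in PAP than in CHR, and miR-133a-3p fell by 10.04 (SE 1.30, limma adjusted p = 7.65e-05). With values below 100 ppm set to 100 ppm, only 1 of the 3, miR-133a-3p, was lower. The same held with undetected values set at the lowest detected value of their library. The summed level of the list ran from 15.44 to 15.98 in CHR, from 5.64 to 12.45 in PAP and from 6.24 to 14.24 in cuSCC, and miR-499-5p was never detected. Neither of the 2 endothelial microRNAs passed between PAP and CHR, and miR-126-3p was 1.40 higher in cuSCC than in CHR (SE 0.33, limma adjusted p = 0.00493), with summed levels of 7.84 to 9.35 for CHR, 7.61 to 9.004 for PAP and 9.26 to 11.17 for cuSCC. Of 6 leukocyte microRNAs 4 were tested and 2 were lower in PAP, among them the lymphocyte microRNA miR-150-5p, which fell by 2.62 (SE 0.44, limma adjusted p = 0.000641); without mouse 2 the count was 3 and without mouse 7 it was 1. Their summed level ran from 13.13 to 14.28 in CHR, from 9.06 to 11.83 in PAP and from 11.14 to 12.60 in cuSCC, and miR-155-5p was never detected. Of 4 erythroid microRNAs 2 were tested, and miR-451a was 4.78 higher in PAP than in CHR (SE 0.87, limma adjusted p = 0.00106), with summed levels of 16.69 to 17.84, 16.70 to 18.24 and 14.87 to 17.87 in CHR, PAP and cuSCC and no detection of miR-144-3p. In cuSCC against CHR, 3 epithelial microRNAs were higher (none without mouse 2 or 3, and 2 without the cuSCC library of mouse 10), the 2 endothelial ones were higher (1 without mouse 2, 3 or 8), 1 leukocyte microRNA was higher and 2 were lower (none higher without mouse 3), and of the erythroid ones miR-451a was higher and miR-486-5p lower (the latter only in the fits on all mice or without mouse 10). In cuSCC against PAP, the leukocyte microRNA miR-142-5p was 2.53 higher (SE 0.34, limma adjusted p = 0.00180), also without any 1 mouse. The other calls in that comparison, 3 of 3 skeletal muscle and 2 of 2 endothelial microRNAs as higher and miR-200c-3p and miR-486-5p as lower, were all lost without mouse 3, 7 or 8. The part of these cell types in the level of miR-29a-3p was not tested.

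Other microRNAs known to act on matrix messages or on TGF-beta signalling had a median above that of all tested microRNAs in each comparison. The list of 20 held miR-21a-5p, which TGF-beta induces, and the miR-30 and miR-133 families, which repress connective tissue growth factor. It also held the miR-200 family, which represses the ZEB factors, and related microRNAs. The list shares 5 members with the epithelial, 2 with the skeletal muscle and 1 with the fibroblast and smooth muscle list. A further 4 are shared with the MYC-repressed list below. Of the 18 tested members, 4 were higher and 2 lower in PAP than in CHR, beside 14.0% and 18.4% of all tested microRNAs. The median of the list was 0.64, against -0.23 over all tested microRNAs. The 4 higher were miR-141-3p, miR-200b-3p, miR-200c-3p and miR-429-3p, and the 2 lower were miR-133a-3p and miR-133b-3p. All of these also belong to the epithelial or skeletal muscle list and were counted there, so no other member was called. The call on miR-133b-3p was lost in the settings given there for low and undetected values. Without mouse 3 or 7 only 2 were higher. miR-133a-3p had the largest change, given above. miR-30d-5p, the most abundant of the list, differed by -0.23 (SE 0.23, limma adjusted p = 0.463). In cuSCC against CHR, where 20.1% of all tested microRNAs were higher and 22.2% lower, 9 of the 18 were higher and 1 lower, with a median of 0.82 against 0.11. The count of higher members was 5 without mouse 2 and 4 without mouse 3. The lower member was miR-133a-3p at -3.22 (SE 1.23, limma adjusted p = 0.0476), which did not pass without mouse 2, 3, 7, 8 or 9 (adjusted p up to 0.0903). Between cuSCC and PAP, 3 were higher and 1 lower, beside 9.22% and 2.39% of all tested microRNAs, with a median of 0.39 against 0.21. The higher count was 1 without mouse 2, 0 without mouse 3, 7, 8 or 9 and 5 without mouse 10.

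The MYC-repressed microRNAs, the list that miR-29 would join by its known control, held 16 members, among them let-7, miR-15a, miR-16, miR-26, miR-34a and miR-195a, all 16 of which were tested. It shares 4 members with the matrix and TGF-beta list (miR-26a-5p, miR-26b-5p, miR-30b-5p and miR-30c-5p) and miR-150-5p with the leukocyte list. Counts of these lists are therefore not independent. None of the 16 was higher and 3 were lower in PAP than in CHR, near the 18.4% of all tested microRNAs that were lower. The median of the list was 0.09, against -0.23 over all tested microRNAs. The largest of the 3 was the fall of miR-150-5p given above, and miR-195a-5p was also lower. miR-26a-5p, the most abundant, differed by 0.12 (SE 0.29, limma adjusted p = 0.782). In cuSCC against CHR, 6 were higher and 1 lower, beside 20.1% and 22.2% of all tested microRNAs, with a median of 0.44 against 0.11. The higher count was 4 without mouse 2, 3 or 8 and also 4 with mouse as a block. The lower one was miR-150-5p, which fell by 2.33 (SE 0.44, limma adjusted p = 0.000927), and miR-26a-5p was 0.76 higher (SE 0.27, limma adjusted p = 0.0365, up to 0.109 without mouse 2, 3, 7 or 8 and 0.0798 with mouse as a block). Between cuSCC and PAP, 2 were higher and none lower, beside 9.22% and 2.39% of all tested microRNAs, with a median of 0.50 against 0.21 (4 were higher with mouse as a block). The tumour suppressor miR-34a-5p had the larger change, at 2.14 (SE 0.53, limma adjusted p = 0.0383, and up to 0.119 without mouse 3, 7, 8 or 9). Its levels were low, however, with means of 4.09 in PAP and 6.23 in cuSCC. With values below 100 ppm set to 100 ppm, its limma adjusted p was 0.629, and 0 members of the list were higher. The count of higher members was 1 without mouse 2 or 9, 0 without mouse 3, 7 or 8 and 6 without mouse 10.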

How the data were processed

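Small RNA libraries of CHR, PAP and cuSCC from 6 mice (18 libraries) were used. The authors trimmed adapters, discarded short and homopolymer reads, assigned reads to miRBase by BLAST and expressed microRNAs in ppm of usable reads. The deposited values are log2 values of ppm, never below log2 of 10 ppm; their quantile normalization was read from the values, whose linear sums were 2.35 to 2.36 times the total of ppm. Read totals were not used, so depth and counting error are unknown. The labels name mm10.

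Of 1251 entries, 818 were at the lowest value everywhere and 293, detected in at least 6 libraries, were tested with limma 3.58.1 in R 4.3.3 (two-sided, no block, Benjamini-Hochberg adjustment, threshold 0.05). Python 3.11.15, numpy 2.4.6, pandas 2.3.3, scipy 1.17.1 and matplotlib 3.10.9 served for exact permutation tests, sequences and plots. The fit was tested on simulated data.

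Samples with the same number came from the same mouse and are paired. Deviations of such samples from their type means correlated at a mean r of 0.025 (PAP and CHR), -0.0676 (cuSCC and CHR) and 0.0582 (cuSCC and PAP), over 0.1 in 2, 1 and 2 of 6 mice.

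Members and lists (5p arms, matrix and TGF-beta, MYC-repressed, 6 cell types) were chosen with earlier results of these data known. Named were the members, their 5p arms, the called microRNA with the largest change and the most abundant one of lists, and the 3 microRNAs most correlated with miR-29a-3p. Alternatives were other detection filters, centrings, lowest values and tests, a fit on all types, mouse as a block and leaving out mice; the comparison with fibroblast markers and the omission of 1 cuSCC library were chosen after seeing the data.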

Additional observations from a re-analysis of the deposited data

Results flagged for a closer look

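In 5 of 8 groups of 6 libraries in which a miR-29 arm varied, 1 library stood apart by a gap that exceeds Dixon's 95% critical value. Most of the other libraries in these groups were tied at the lowest value of the table, 3.32. Where only 1 library is above that value, the gap fills the whole range by construction. The usual rate of about 1 in 20 groups flagged by chance does not apply to such values. The count can therefore show neither an excess over chance nor the lack of one. miR-29c-3p was at 3.62 in the cuSCC of mouse 3 and at 3.32, just above the limit, in that of mouse 2. miR-29a-5p was at 3.82 in the CHR of mouse 8. The CHR of mouse 10, the CHR library with the most detected entries, had miR-29b-1-5p at 3.52 and miR-29c-5p at 4.61. miR-29c-5p was at 4.48 in the cuSCC of mouse 8, with 3.34 and 3.70 in those of mice 2 and 9. No library stood apart in this way for miR-29a-3p.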

How the results depend on the processing

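miR-29a-3p passed the adjusted threshold in none of 17, 18 and 18 alternatives for PAP against CHR, cuSCC against CHR and cuSCC against PAP. Its log2 difference ranged from -0.68 to -0.41 (adjusted p 0.0533 to 0.298), from -0.21 to 0.16 (0.6246 to 1.0) and from 0.36 to 0.75 (0.141 to 0.490). The difference between cuSCC and CHR reversed to 0.16 without mouse 9, 0.11 without mouse 10 and 0.05 without the cuSCC library of mouse 10, on fewer samples. Relative to the fibroblast and smooth muscle markers it became 1.24 for PAP against CHR and -1.54 for cuSCC against PAP; the cause was not tested.

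With mouse as a replicate block, the pairing by animal, 77, 110 and 24 microRNAs passed in place of 95, 124 and 34, and the adjusted p of miR-29a-3p was 0.161, 0.898 and 0.265. No call on a member changed. The difference between miR-29a-3p and miR-29b-3p had adjusted p = 0.141, 0.984 and 0.211 in the exact sign-flip test.

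With undetected values set at the lowest detected value of their library, which is higher in most PAP libraries, the difference between miR-29a-3p and either miR-29b-3p or miR-29c-3p became -1.96 for PAP against CHR (adjusted p = 0.0244, exact permutation test) and 2.27 and 2.23 for cuSCC against PAP (0.0195), while cuSCC against CHR reversed to 0.31 and 0.265. By construction these follow the detection limit of each library and not a measured level. With undetected values kept at 3.32, the cuSCC against CHR values were -0.06 for miR-29a-3p minus miR-29b-3p and -0.11 for miR-29a-3p minus miR-29c-3p. Leaving out each mouse in that setting gave -0.21 to 0.16 and -0.27 to 0.10.

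The number of microRNAs called depended on settings more than the members did. A lowest value of 100 ppm gave 57, 80 and 2 calls for the 3 comparisons, and leaving out 1 mouse gave 55 to 79, 77 to 129 (131 without the cuSCC library of mouse 10 alone) and 1 to 59. Between cuSCC and PAP, the calls were 21 with detection in at least 12 libraries, 2 with at least 1 library, 22 centred outside the cell type lists, 6 with the unmoderated test and 0 with the exact permutation test (75 at an unadjusted p under 0.05, 83 with limma). Undetected values at the lowest detected value gave 80, of which 18 were higher and 62 lower. For PAP against CHR the same setting gave 63 higher and 37 lower. For miR-29b-3p, miR-29c-3p and the 5p arms, no level can be given below the limit of a library.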
